A study of Rattus norvegicus with 11 samples.

Results

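The miR-148 and miR-152 family was measured in pancreatic islets of Sprague-Dawley rats at 2 ages. Its members were taken as the sense rows named miR-148a, miR-148b or miR-152, on either arm of the hairpin. Of 950 rows in the count table, 4 matched: both arms of miR-148b and both arms of miR-152. The name miR-148a matched 0 rows, so that member is not analysed here. The table also holds 227 features known only by an Ensembl transcript identifier, and no file pairs these identifiers with names. One of them, ENSRNOT00000073699, lies on the minus strand of chromosome 4 and is the only transcript of the table between miR-490 and miR-196b (Rnor_5.0). In RefSeq (GRCr8) the only miRNA gene between those neighbours is that of miR-148a. Whether this feature counts miR-148a is not known, and it was not counted in the family. Sums and shares given here for miR-148b and miR-152 are therefore not those of the whole family. All 4 arms passed the filter on low counts and are among 457 features tested.

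The study sequenced small RNA from total islet RNA of 10-day-old pups (P10, 1.5 weeks, 5 libraries) and of 3-month-old males (12 weeks, 6 libraries). Both groups are labelled as controls, with no other treatment or allele, while only the adults carry a sex label, so age cannot be told apart from sex. Islets are the hormone-secreting cell clusters of the pancreas. Most of their cells are insulin-producing beta cells, and other cell types contribute RNA. The labels call the libraries biological replicates without saying whether animals were pooled. P-values therefore measure the spread between these libraries. In whole islets, fewer cells of a type and less miRNA per cell cannot be told apart.

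A miRNA hairpin is cut into a duplex of a 5p and a 3p strand. One strand is usually kept in an Argonaute protein, where its seed, bases 2 to 8, pairs with target transcripts. The 3p strands of this family share a seed and are known to repress the maintenance DNA methyltransferase Dnmt1. In beta cells, miR-148 has been described among the miRNAs that sustain insulin transcription by acting on its repressors. In the RefSeq annotation (GRCr8), the miR-148b gene lies within Copz1 and the miR-152 gene within Copz2. These genes encode paralogous subunits of the coatomer coat of transport vesicles.

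RefSeq (GRCr8) holds mature sequences for 3 of the 4 measured arms, and that of miR-148b-5p is named only. The 3p strands are shown because they share a seed and differ outside it, and the miR-152-5p strand because its level went the other way with age. The sequence of miR-148a-3p is given for comparison. Capitals mark the seed.
miR-148a-3p: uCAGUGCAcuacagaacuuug
miR-148b-3p: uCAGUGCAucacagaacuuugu
miR-152-3p: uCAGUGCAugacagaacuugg
miR-152-5p: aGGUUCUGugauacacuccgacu

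The seed CAGUGCA is held by 3 mature rat miRNAs in that table, miR-148a-3p, miR-148b-3p and miR-152-3p. Counting from 1 at the 5′ end over 21 shared positions, miR-148b-3p and miR-152-3p differ by 2 substitutions, C10G and U20G. miR-148a-3p and miR-148b-3p also differ by 2, C9U and U10C. How reads with a mismatch were counted is not given in the sources used here. By contrast, the miR-152-5p strand has a different seed, GGUUCUG, which 1 mature rat miRNA in the table holds. Its bases 3 to 9 are the reverse complement of bases 11 to 17 of miR-152-3p, the longest perfect stretch between the strands.

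The counts are placed on Rnor_5.0. miR-148b-5p lies at chr7:142692749-142692770 and miR-148b-3p at chr7:142692786-142692807, both on the plus strand. miR-152-5p lies at chr10:84512246-84512268 and miR-152-3p at chr10:84512284-84512304, also on the plus strand. The miR-152 intervals have the lengths of the RefSeq strands, 23 and 21 bases, and the same 38 bases from start to start. Antisense rows at the miR-152 arms held 1 and 6 reads in all 11 libraries together.

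Libraries held between 1432929 and 4483017 counts. The 4 arms together took from 0.133% to 0.204% of a library. The thinnest value in the family was 35 reads, for miR-152-5p in adult replicate 1 (95% exact Poisson interval 24.4 to 48.7). Such intervals cover counting error only, as no molecular identifiers are stated and reads amplified by PCR are not independent molecules.

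With age, the 2 arms of miR-152 moved in opposite directions. miR-152-3p rose 1.80-fold in adults and miR-152-5p fell 1.57-fold. miR-148b-3p, the most abundant of the 4, and miR-148b-5p did not pass the test. Of the 4 arms, 1 rose, 1 fell and 2 did not pass, with a median log2 fold change of 0.08. Over all 457 tested features 21.2% were higher and 29.5% lower in adults by edgeR (adjusted p under 0.05), with a median of -0.11. With 4 members, the count of calls is thus near the background of 50.8%. Levels are given in CPM, counts scaled to a total of 1000000 on library sizes adjusted by the trimmed mean of M values (TMM).

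miR-148b-3p stood at 1389, 1461, 1321, 1212 and 1437 CPM in P10 replicates 1, 3, 4, 5 and 6. In adults it ranged from 1151 to 1537 CPM, with a median of 1242. The groups overlapped: adult replicate 2 lay above every P10 library, and adult replicates 4 and 6 lay below every P10 library. The P10 libraries averaged 1364 ± 100.4 CPM (SD, n = 5) and the adult libraries 1267 ± 139.5 CPM (SD, n = 6), ranks 54 and 55 among 898 features. The log2 fold change was -0.11 ± 0.10 (SE; edgeR adjusted p = 0.398). Its 95% interval, -0.33 to 0.11, holds no change and leaves room for small changes in either direction. The sign depended on the scaling: the log2 change was -0.36 with library totals alone, which passed the test (edgeR adjusted p = 0.0172), and 0.05 with upper-quartile scaling (0.730). These scalings shifted the median of all tested features by -0.26 and 0.16.

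miR-152-3p, the strand with the family seed, stood at 150.3, 141.1, 132.9, 95.7 and 160.9 CPM in P10 replicates 1, 3, 4, 5 and 6. In adults it ranged from 210.3 to 281.7 CPM, with a median of 251.0. All 6 adult libraries lay above all 5 P10 libraries. CPM ranges did not overlap for 30% of tested features. The means were 136.2 ± 24.9 CPM (SD, n = 5) and 244.9 ± 26.3 CPM (SD, n = 6). The log2 fold change was 0.85 ± 0.15 (SE; 95% interval 0.519 to 1.175; edgeR adjusted p = 0.00047). Its rank among all features moved from 159 to 115.

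miR-152-5p, its partner strand, stood at 55.2, 55.1, 65.9, 49.6 and 57.4 CPM in P10 replicates 1, 3, 4, 5 and 6. In adults it ranged from 29.1 to 48.1 CPM, with a median of 34.6. All 6 adult libraries lay below all 5 P10 libraries, the nearest being adult replicate 3 and P10 replicate 5. The means were 56.6 ± 5.95 CPM (SD, n = 5) and 36.1 ± 7.30 CPM (SD, n = 6). The log2 fold change was -0.65 ± 0.16 (SE; 95% interval -0.999 to -0.297; edgeR adjusted p = 0.00477).

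miR-148b-5p, the minor strand of miR-148b, stood at 66.4, 49.7, 80.7, 70.6 and 80.0 CPM in P10 replicates 1, 3, 4, 5 and 6. In adults it ranged from 74.5 to 86.3 CPM, with a median of 85.4. Adult replicates 2 to 6 lay above every P10 library, and adult replicate 1 lay below P10 replicates 4 and 6. The log2 fold change was 0.26 ± 0.14 (SE; 95% interval -0.04 to 0.57; edgeR adjusted p = 0.134). It passed as higher with DESeq2's size factors (0.36, edgeR adjusted p = 0.0450), with upper-quartile scaling (0.42, 0.0433) and with DESeq2 (0.35, adjusted p = 0.0171). With library totals alone it was -0.01 (edgeR adjusted p = 0.975).

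**Figure D1:**
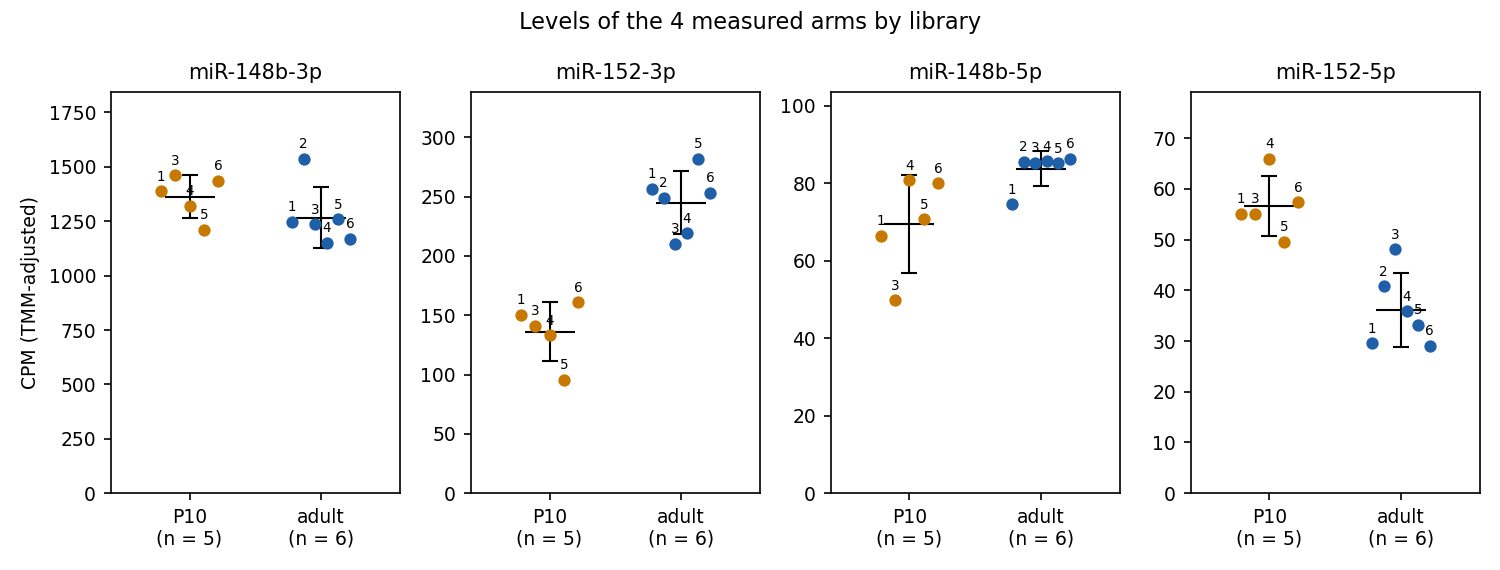
CPM (vertical axes from 0, a separate scale for each arm) in 5 P10 and 6 adult libraries, each point a library marked with its replicate number and spread sideways only for legibility; black bars are the mean ± SD. The adult points lie above all P10 points for miR-152-3p and below them for miR-152-5p, while the groups overlap for both miR-148b arms.

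Of the 457 tested features, 154 had a larger log2 change in size than miR-152-3p, 202 than miR-152-5p, 340 than miR-148b-5p and 418 than miR-148b-3p. The plot of log2 fold change against mean level places the 4 arms among them.

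**Figure D2:**
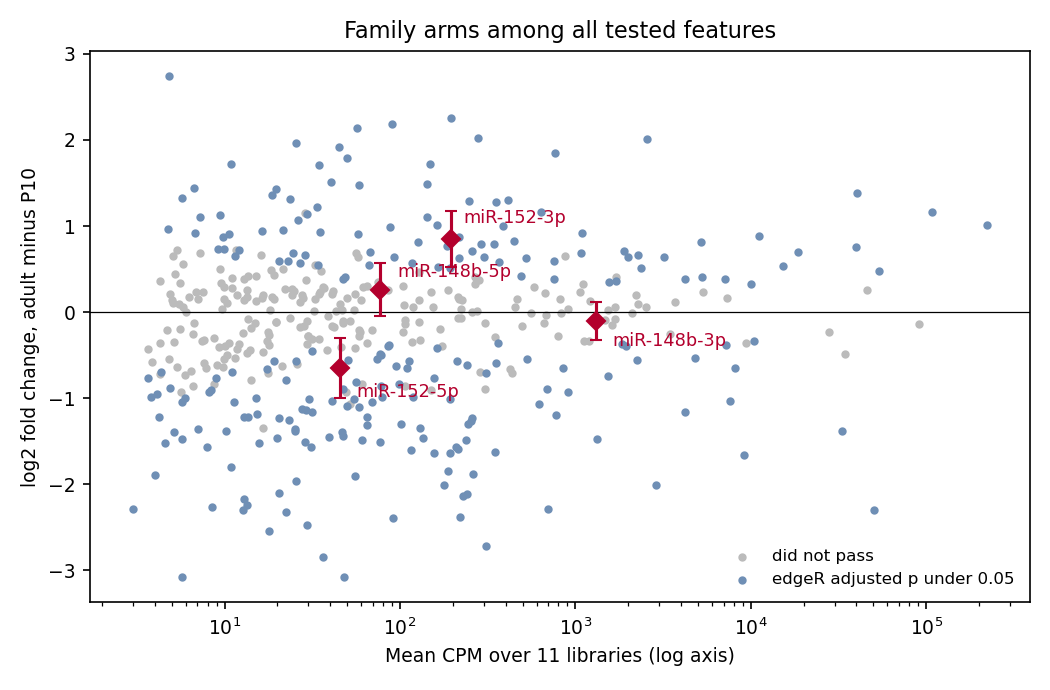
Log2 fold change, adult minus P10 (vertical axis), against mean CPM over 11 libraries (horizontal log axis) for 457 tested features, blue where the edgeR adjusted p was under 0.05. Red diamonds with 95% intervals are the family's arms; the intervals of both miR-148b arms cross 0 and those of the miR-152 arms do not.

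The arms of miR-152 were compared directly within each library. The scaling between libraries cancels out of the read shares and, but for the 2 CPM added, out of the tested ratio. At P10 its 5p arm gave 26.8%, 28.1%, 33.2%, 34.1% and 26.3% of the reads of both arms in replicates 1, 3, 4, 5 and 6. In adults it gave from 10.3% (replicate 6, 95% exact binomial interval 7.90% to 13.1%) to 18.6% (replicate 3, 14.8% to 22.9%). No adult library reached the lowest P10 share. The mean share was 29.7% ± 3.67 (SD, n = 5) at P10 and 13.0% ± 3.29 (SD, n = 6) in adults. In reads, 2.41 ± 0.407 of 3p per read of 5p at P10 became 7.07 ± 1.81 in adults. The log2 ratio of 5p to 3p fell by 1.49 ± 0.21 (SE; 95% interval -1.94 to -1.04; limma adjusted p = 0.000147), a 2.80-fold change of the ratio. Among 127 hairpins with both arms tested, 29.1% had a changed arm ratio, and miR-152 had the third smallest p.

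The hairpin of miR-148b gave mostly 3p reads at both ages. Its 5p arm took from 3.29% (replicate 3) to 5.76% of the reads at P10 and from 5.27% to 6.93% in adults. The shares overlapped, and their means were 4.88% ± 0.994 (SD, n = 5) and 6.25% ± 0.669 (SD, n = 6). The log2 ratio of 5p to 3p was 0.39 ± 0.19 higher in adults (SE; 95% interval -0.01 to 0.79), which did not pass (limma adjusted p = 0.122).

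The difference between the hairpins was itself tested, a comparison added after the data were seen. The log2 arm ratio of miR-152 minus that of miR-148b was 3.05 ± 0.301 at P10 (SD, n = 5) and 1.17 ± 0.416 in adults (SD, n = 6). The log2 difference was -1.88 and the groups did not overlap (two-sided exact permutation test, p = 0.00216, the smallest that this test can give with 5 and 6 libraries).

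**Figure D3:**
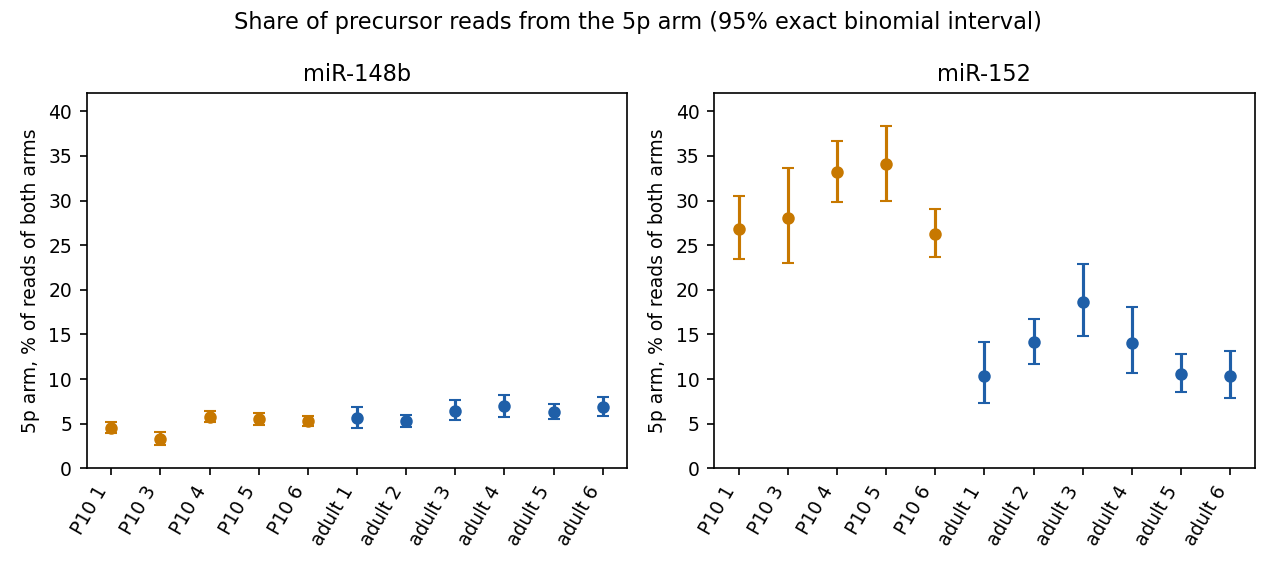
Share of a hairpin's reads from its 5p arm (percent, vertical axis) in each library (horizontal axis), with 95% exact binomial intervals that cover counting error only. miR-152 falls from 26.3% or more at P10 to 18.6% or less in adults, while miR-148b stays between 3.29% and 6.93%.

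Both arms of a hairpin seldom passed the test in opposite directions. That was so for 2 of 127 hairpins, miR-152 and miR-24, against 39 in which both arms passed in the same direction. miR-24 was named after its values were seen. It is known to arise from a pair of genes that share the 3p strand, so its arms need not come from the same hairpin. miR-24, described with miR-148 as sustaining insulin transcription, had a log2 change of 0.83 for its 3p arm and -0.77 for its 5p arm. Of the 37 hairpins with a changed arm ratio, 18 moved toward 3p in adults and 19 toward 5p.

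Since the 3p strands of miR-148b and miR-152 share a seed, their relative amounts were also compared. miR-148b-3p had 9.24, 10.4, 9.93, 12.7 and 8.93 reads per read of miR-152-3p in P10 replicates 1, 3, 4, 5 and 6. In adults it had from 4.47 to 6.17. All adult libraries lay below all P10 libraries. The ratio was 1.95-fold lower in adults, a log2 difference of -0.96 (two-sided exact permutation test, p = 0.00216). miR-148b thus gave 90.98% ± 1.07 (SD, n = 5) of the reads of both 3p strands at P10 and 83.7% ± 1.76 (SD, n = 6) in adults.

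The summed level of the 2 strands averaged 1500 ± 123.1 CPM over the P10 libraries (SD, n = 5) and 1512 ± 147.3 CPM over the adult ones (SD, n = 6). It ranged from 1308 to 1602 CPM at P10 and from 1370 to 1786 CPM in adults. The adult minus P10 difference of the sum changed sign with the scaling and with the libraries included. It was 11.7 CPM with TMM, -260.7 CPM with library totals alone, and from -45.0 CPM (without adult replicate 2) to 45.3 CPM (without adult replicate 3) when each library was left out. No test was made on the sum. The unnamed feature ENSRNOT00000073699_-3p (chr4:145680972-145680992), singled out after its values were seen, stood far above that sum. It averaged 44221 ± 7882 CPM over the P10 libraries (SD, n = 5) and 61671 ± 4853 CPM over the adult ones (SD, n = 6), a log2 difference of 0.48 ± 0.12 (SE) with an edgeR adjusted p = 0.00389. If it holds miR-148a reads, the sum and shares given here leave out most of the family. The read ratio of the 5p strands went the other way, from 1.23 ± 0.208 reads of miR-148b-5p per read of miR-152-5p at P10 (SD, n = 5) to 2.38 ± 0.412 in adults (SD, n = 6). Its log2 difference was 0.92 (exact permutation p = 0.00216), a comparison added after the data were seen. Adjusted over the 3 within-library comparisons, each p stayed at 0.00216, the smallest that the exact permutation test can give. The contrast of arm ratios equals the log2 ratio of the 3p strands minus that of the 5p strands. It is therefore not a separate result.

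The direction of both miR-152 arms and their side of the threshold held under each of the 22 other settings run. The log2 change of miR-152-3p lay between 0.59 and 1.00, and that of miR-152-5p between -0.91 and -0.49.

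**Figure D4:**
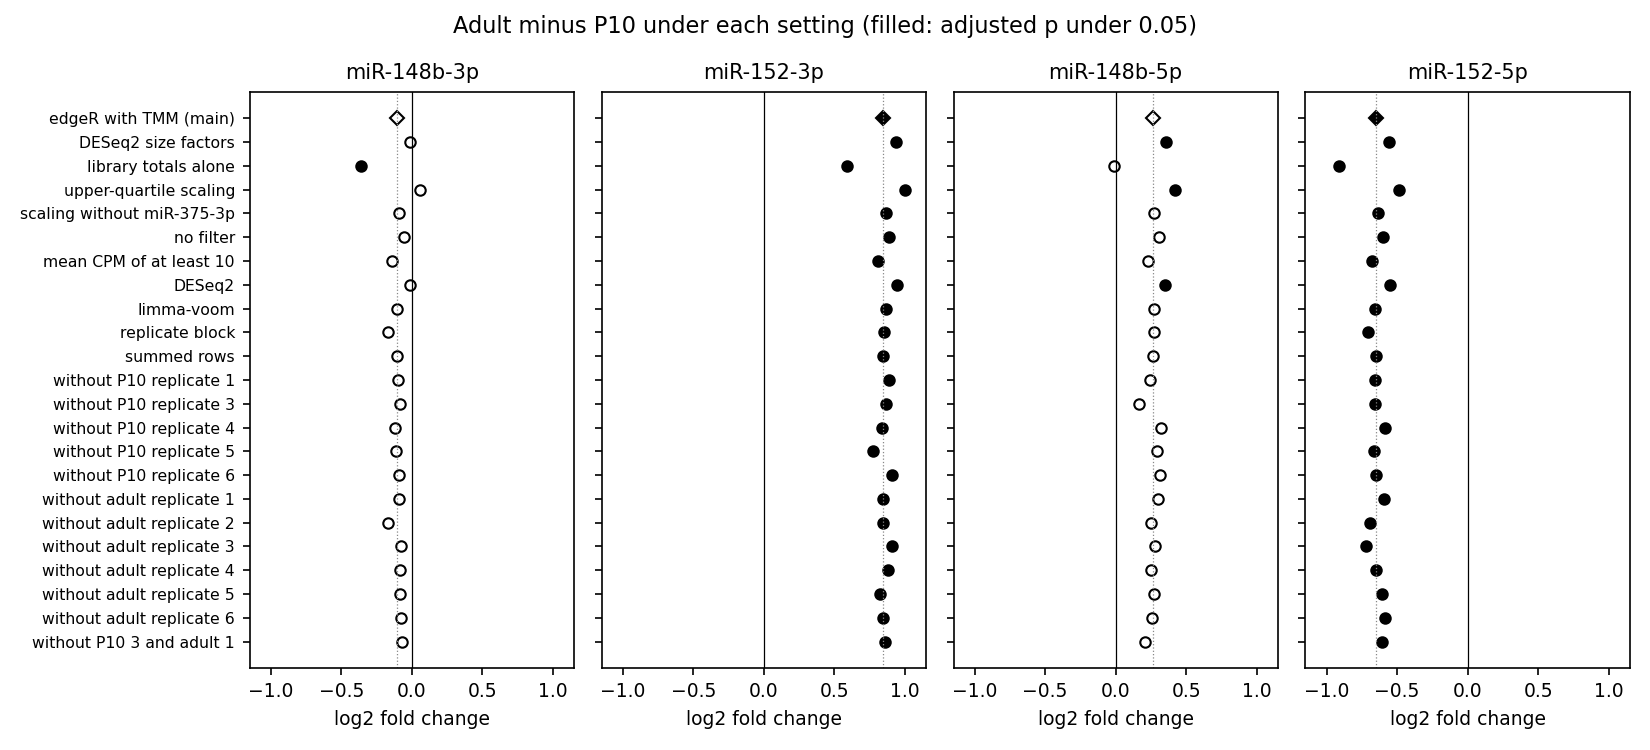
Log2 fold change, adult minus P10 (horizontal axes), of each arm under the main analysis (diamond) and 22 other settings (circles, vertical axis), filled where the adjusted p was under 0.05. Both miR-152 arms stay filled and on 1 side of 0 throughout, while the miR-148b arms cross 0 with the scaling.

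The spread between libraries of an age had no common pattern over the arms, and its differences were not tested. The coefficient of variation of miR-148b-3p was 7.36% at P10 and 11.01% in adults. That of miR-152-3p was 18.3% at P10, where replicate 5 was low, and 10.7% in adults. For miR-152-5p it was 10.5% at P10 and 20.2% in adults, and for miR-148b-5p 18.2% and 5.42%.

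Of 174 named miRNAs with at least 50 CPM, those whose pattern over the 11 libraries was nearest to miR-148b-3p were miR-103-2-3p, miR-410-3p and let-7a-5p. Nearness was the root mean square difference of log2 CPM, each miRNA centred on its own mean, and was 0.11, 0.12 and 0.13, against a median of 0.40 over the candidates. The pattern includes the age difference, so the age changes of the miRNAs chosen by it follow from the choice and are given as a description. The log2 fold changes of these 3 were -0.10, -0.15 and 0.06. The miRNAs nearest to miR-152-3p were miR-339-3p, miR-325-5p and miR-30d-5p, at 0.23, 0.23 and 0.24 against a median of 0.55. Their log2 fold changes were 0.70, 0.81 and 0.70.

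Other miRNAs of the insulin transcription group, miR-24, miR-26 and miR-182, had 5 sense arms tested, all of miR-24 and miR-26. No arm named miR-182 was tested. Whether any of the 227 features known only by an Ensembl identifier holds its reads was not tested, so its level is not known here. Of the 5 tested arms, 3 rose, 1 fell and 1 did not pass, against 21.2% higher and 29.5% lower over all 457 tested features. Their median log2 fold change was 0.38 against -0.11 over all features. Whether so short a list differs from those shares was not tested. miR-26a-5p, the most abundant, averaged 6072 ± 917.7 CPM in pups (SD, n = 5) and 7916 ± 845.8 CPM in adult libraries (SD, n = 6), a rise with an edgeR adjusted p = 0.0151. Likewise miR-26b-5p rose 1.59-fold (edgeR adjusted p = 0.00601).

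Among other miRNAs known to act on DNA methyltransferases, miR-29 and miR-185, 2 of 4 tested sense arms rose and 2 did not pass. Their median log2 fold change was 1.34, against -0.11 over all tested features. Of all tested features 21.2% were higher in adults and 50.8% passed in either direction. The count of calls, 2 of 4, is thus near the overall share of calls. The arms that rose are the 3p arm of miR-29b counted at 2 loci, so they may be 1 member. The more abundant, miR-29b2-3p, averaged 19.8 ± 7.15 CPM in pups (SD, n = 5) and 88.3 ± 20.6 CPM in adult libraries (SD, n = 6). miR-185-5p was at 26.3 ± 12.5 CPM and 38.4 ± 8.26 CPM (edgeR adjusted p = 0.0994). Only sense rows under these names were taken, so the levels need not be those of all miR-29 reads. Antisense rows under other names were left out, such as that of miR-3556a-5p (mean 959.2 CPM at P10 and 3880 CPM in adults). Whether such rows hold miR-29 reads was not tested.

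Some markers of islet and other cells moved with age in the same libraries. Over all 457 tested features 21.2% were higher and 29.5% lower in adults by edgeR. Whether any marker list differs from those shares was not tested. Of 12 tested islet endocrine arms, 6 rose and 2 fell, and their summed level was 127211 to 176005 CPM at P10 and 262978 to 336068 CPM in adults. It was led by miR-375-3p, with means of 143108 CPM at P10 and 287796 CPM in adults. The 2 arms that fell were miR-183-5p (log2 change -0.38, edgeR adjusted p = 0.0191) and miR-184-3p (-1.26, 0.00016). miR-184-3p was named after its values were seen. Of 6 mesenchymal arms 4 fell, and the list summed to 33246 to 61126 CPM at P10 and 17172 to 58287 CPM in adults. Most of that sum was miR-143-3p, which did not pass (edgeR adjusted p = 0.174), while miR-199a-3p fell 4.86-fold.

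The other marker lists were far lower in level. Their calls are to be read beside the same shares, 21.2% higher and 29.5% lower over all tested features. Of 3 tested acinar arms 2 rose, miR-217-5p (log2 change 1.96) and miR-216a-5p (1.36), and the list summed to 22.2 to 37.7 CPM at P10 and 28.6 to 127.1 CPM in adults. Of 4 leukocyte arms miR-150-5p fell, and the list, led by miR-142-5p (edgeR adjusted p = 0.162), summed to 681 to 1427 CPM at P10 and 248.9 to 832.3 CPM in adults. Neither erythroid arm tested passed, miR-451-5p (edgeR adjusted p = 0.505) or miR-144-5p (0.856), and their list summed to 24.2 to 72.3 CPM at P10 and 14.5 to 63.7 CPM in adults. No marker with a sense row was at 0 in all libraries. The endothelial and liver lists matched 0 sense rows by name, so the levels of those markers are not known here.

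Within an age, the miR-152 arms could be set beside those markers. The adult libraries with the most acinar signal, replicates 1, 3 and 6 at 110.9, 123.7 and 127.1 CPM, had 5p shares of miR-152 of 10.4%, 18.6% and 10.3%, which include the highest and the lowest of the adult shares. Without P10 replicate 3 and adult replicate 1, which had the highest mesenchymal sums of their age, the log2 changes were 0.86 and -0.61 (edgeR adjusted p = 0.00142 and 0.0114), in a comparison added after the data were seen. The mesenchymal sums of the remaining libraries still differed between the ages, at 33246 to 47423 CPM at P10 and 17172 to 31799 CPM in adults. The part of cell composition in the miR-152 differences was not tested.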

How the data were processed

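The deposited tables hold raw counts of reads for each arm of each miRNA locus, placed on Rnor_5.0 per the file headers. The submitters' processing notes name rn5, DESeq and edgeR with no role. Trizol-extracted RNA went into Illumina TruSeq small RNA libraries, per the labels' protocols. Adapter ligation and PCR favour some sequences, so levels of different miRNAs are less comparable than 1 miRNA between libraries. Aligner, counting rules and annotation were not given in the sources used here. Counts in the 11 per-library tables equalled those of the series-wide table.

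Each name and strand tag entered once, with its highest count per library, giving 898 features. edgeR 4.0.16 (R 4.3.3) filtered features with filterByExpr, scaled by TMM and fitted age by robust quasi-likelihood over all 457 features that passed. Benjamini-Hochberg adjustment ran over all of them, with a threshold of 0.05. Arm usage was tested with limma 3.58.1 on log2 ratios of 5p to 3p CPM, with 2 CPM added, over 127 hairpins. Ratios between members were tested by exact permutation. A test of each pair of 3p strands had been planned, and 1 pair could be run, as miR-148a had no row.

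Members, lists and tests were chosen with earlier results of these data known. The named miRNAs were all family arms, the 3 nearest patterns to each 3p arm, and the 2 members of each list with the highest mean CPM; exceptions are marked. On simulated counts for the age comparison (452 features) the edgeR step recovered 61.2% of 1.5-fold and 96% of 2-fold changes, and called 2 of 253 unchanged features. The arm test was run on other simulated counts, with assumed levels and spread and equal depth in every library, not taken from these data. There it recovered 30 of 30 hairpins changed 3-fold and called 1 of 120 unchanged ones, among 150. Its recovery at the spread of these libraries was not tested. Every pair of libraries of 1 age differed by more than sampling noise (chi-square per degree of freedom at least 11.7). Alternatives were other scalings, filters and tools (DESeq2 1.42.0, limma-voom), a replicate block, rows of a name summed, another added CPM, and leaving out each library.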

Additional observations from a re-analysis of the deposited data

Results flagged for a closer look

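In 18 group values checked (9 measures at 2 ages), 2 had a library far from the others; chance flags about 1 in 20. miR-148b-3p stood at 1537 CPM in adult replicate 2, with the next adult library at 1259 CPM. miR-148b-5p stood at 74.5 CPM in adult replicate 1, with the next at 85.2 CPM and the other 5 adult libraries within 85.2 to 86.3 CPM. Without adult replicate 2 the log2 change of miR-148b-3p was -0.17 (edgeR adjusted p = 0.114), and without adult replicate 1 that of miR-148b-5p was 0.30 (edgeR adjusted p = 0.101).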

How the results depend on the processing

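Both miR-152 arms kept their direction and their side of the threshold under all 22 other settings, miR-148b-3p under 20 and miR-148b-5p under 18. With library totals alone, miR-148b-3p passed as lower (-0.36), miR-148b-5p turned to -0.00846, the summed 3p level differed by -260.7 CPM, and the calls were 54 higher and 187 lower (22.4% higher, against 41.8% for 97 and 135). With upper-quartile scaling miR-148b-3p turned to 0.0543 and miR-148b-5p passed (0.42), with 127 higher and 103 lower (55.2% higher). miR-148b-5p also passed with DESeq2's size factors (0.36) and with DESeq2 (0.35). The cause was not tested.

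Leaving out each library gave 86 to 97 higher and 108 to 137 lower miRNAs, with 29 to 40 changed arm ratios. The log2 changes then ran from 0.77 to 0.91 (miR-152-3p), -0.72 to -0.59 (miR-152-5p), -0.17 to -0.08 (miR-148b-3p) and 0.17 to 0.32 (miR-148b-5p), and the miR-152 arm ratio from -1.61 to -1.41. The summed 3p level differed by -45.0 to 45.3 CPM. Deviations of libraries with equal replicate numbers had correlations from -0.22 to 0.22. No P10 library correlated best with the adult library of its own number. Whether equal numbers share a batch was not tested. With the replicate block 93 miRNAs were higher and 112 lower, and 31 hairpins had a changed arm ratio, against 37 without it. The block changed no call of the miR-148b and miR-152 arms or of their arm ratios. Under that block, exact sign-flip permutation over the 5 equal numbers cannot go below p = 0.0625. The 3 within-library comparisons reached it, at -1.01 (3p strands), 0.95 (5p strands) and -1.96 (arm ratios). At 35 to 107 reads, miR-152-5p in adults is limited by depth.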
